A study of Mus musculus with 9 samples.

Results

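The genes described here encode molecular chaperones and the machinery that moves proteins through the secretory pathway. They are the protein-coding genes of the table whose symbols carry the name of one of these families: Hsp, Dnaj, Cct, Pdia, Fkbp, Ppi, Sec, Ssr, Spcs, Cop, Tmed, P4h, Plod or Kdelr. The rule found 25 genes among the 8329 genes of the table, of which 3477 are protein-coding. A further 2 matches, the pseudogenes *Hspe1-ps3* and *Fkbp1a-ps2*, were left out and were listed at 0 in all 9 libraries. One match by name, *Sec14l5*, belongs to a lipid transfer family and has no known role in folding. Of the 25 genes, 24 were above 0 in at least 1 library, and 20 reached at least 1 FPKM in at least 3 of the 9 libraries and were tested. FPKM is the number of fragments on a gene per kilobase of its length, scaled to the total of the library, so levels of different genes can be set side by side.

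The study followed how skeletal stem cells of the periosteum (P-SSCs), the membrane on the outer surface of bone, respond when a whole femur is transplanted under the skin of another mouse. RNA came from WT C57BL/6J mice, 6 to 12 weeks old unless the methods specify otherwise, in 3 groups of 3 libraries. These were day 0 mesenchymal stem cells of the bone marrow (BM-MSCs), day 0 P-SSCs, and P-SSCs of the grafted femur at day 3 after bone transplantation (graft P-SSCs). All were sorted as CD45- Ter119- CD31- CD51+ CD200+ cells, and some libraries combined RNA of 2 mice, with distinct mice in each replicate per the methods. Whether groups shared mice is not stated. The recipients of the grafts were not conditioned, and the P-SSC groups differ in the surgery and in the time since it, which cannot be told apart.

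Chaperones bind unfolded proteins and help them reach their final shape. In the cytosol the Hsp70 proteins work with J proteins, which hand them clients and start their ATPase, and the ring-shaped chaperonin CCT folds actin and tubulin. Secreted proteins such as collagen enter the endoplasmic reticulum (ER) through the Sec61 channel, form disulfide bonds with the help of protein disulfide isomerases, and leave in vesicles. KDEL receptors and COPI vesicles bring escaped ER proteins back from the Golgi. Cells of the skeletal lineage secrete large amounts of collagen and depend on this machinery, together with the prolyl 4-hydroxylases that stabilize the collagen triple helix.

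Depth was similar in all libraries, with totals of 16890241 to 21315438 fragments. P-SSC replicate 3 stood apart from the other P-SSC libraries, with a Pearson's r across the genes tested of 0.858 and 0.870 against 0.960 between the other two. It was more than 2-fold above the mean of P-SSC replicates 1 and 2 for 4 of the 20 genes, *Ppif*, *Tmed7*, *Dnajc2* and *Sec22c*, and more than 2-fold below it for 0 of them. Over all genes tested the shares were 28.0% and 10.6%. The labelled cell types could be checked against few markers. Of 8 blood cell genes in the table, *Ptprc* (CD45), *Adgre1*, *Mpo* and *Cd79b* were at 0 in every P-SSC library, and none was at 0 throughout the graft libraries. Their summed level was 41.2 to 93.8 FPKM in P-SSCs, 36.5 to 94.6 FPKM in graft P-SSCs and 1181 to 2848 FPKM in BM-MSCs. Most of the BM-MSC sum was the globin gene *Hba-a2* (748, 618 and 2200 FPKM) and the myeloid gene *Lyz2* (143, 540 and 608 FPKM), with *Mpo* in 1 library (292 FPKM). Of the 7 tested, 2 were higher and 1 lower in graft P-SSCs than in P-SSCs by limma, beside 22.6% and 11.5% of all genes tested. The macrophage genes *Csf1r* (0.248 to 0.835 FPKM in P-SSCs, 5.57 to 6.31 in graft P-SSCs) and *Adgre1* (0.907 to 2.75 FPKM in graft P-SSCs) were higher. Both passed the filter for testing only with the graft libraries counted, so their calls have to be read with that. The immunoglobulin gene *Ighm* was lower, with 5.71 to 24.6 FPKM in P-SSCs and 0.235 to 0.567 in graft P-SSCs. *Ptprc* had 0.113 to 0.311 FPKM in graft P-SSCs and was too low to test. The periosteal gene *Postn* had 391 to 476 FPKM in P-SSCs and 782 to 879 in graft P-SSCs. The one muscle gene in the table, *Myl1*, was lower in graft P-SSCs (-1.79, limma adjusted p = 0.0306), with 1.77, 6.47 and 2.76 FPKM in P-SSCs and 0.329, 0 and 0.405 FPKM in graft P-SSCs. It passed the filter only with the P-SSC libraries counted, in which it was higher. The part of other cells in the results below was not tested, and in sorted bulk RNA a change in the mix of cells and a change in RNA per cell cannot be told apart.

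Promoters are shown for 6 of the genes that rose in graft P-SSCs, because they contain short motifs known from the heat shock and ER stress responses. The windows come from RefSeq (GRCm38.p6) and run from 250 bases before to 50 bases after each annotated start, with 21 of the 25 genes matched. The motifs searched on both strands were the heat shock pair GAANNTTC, the unfolded protein response element TGACGTGG, its inner core ACGTG, and the ER stress element, in which CCAAT is followed after 9 bases by CCACG. The 150 bases before the start are printed 5′ to 3′ on the strand of the gene, with the motif in capitals. *Kdelr3* (chr15:79516258-79516407, plus strand) has the unfolded protein response element on its reverse strand, from 30 to 23 bases before the start. *Pdia5* (chr16:35490874-35491023, minus strand) has the ACGTG core. *Hspe1* (chr1:55087998-55088147, plus strand) has a run of overlapping heat shock units of alternating GAA and TTC, all in capitals. *Dnaja1* (chr4:40722318-40722467, plus strand), *Sec61g* (chr11:16508485-16508634, minus strand) and *Cct2* (chr10:117063376-117063525, minus strand, the more downstream of its annotated starts) have the heat shock pair. The stretches printed for *Dnaja1* and *Cct2* lie inside the genes as annotated below, not upstream of them.
Kdelr3: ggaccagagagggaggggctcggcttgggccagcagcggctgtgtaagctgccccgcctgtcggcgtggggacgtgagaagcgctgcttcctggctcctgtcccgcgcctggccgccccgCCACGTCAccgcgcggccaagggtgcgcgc
Pdia5: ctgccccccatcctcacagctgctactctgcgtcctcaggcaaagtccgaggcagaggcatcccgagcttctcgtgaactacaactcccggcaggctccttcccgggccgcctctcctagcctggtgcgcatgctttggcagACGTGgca
Hspe1: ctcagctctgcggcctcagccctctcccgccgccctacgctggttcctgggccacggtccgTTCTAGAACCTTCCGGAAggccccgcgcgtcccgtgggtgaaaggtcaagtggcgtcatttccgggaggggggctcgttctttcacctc
Dnaja1: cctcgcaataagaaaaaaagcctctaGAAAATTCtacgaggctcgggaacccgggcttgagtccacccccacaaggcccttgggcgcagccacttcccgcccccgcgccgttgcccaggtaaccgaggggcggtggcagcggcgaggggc
Sec61g: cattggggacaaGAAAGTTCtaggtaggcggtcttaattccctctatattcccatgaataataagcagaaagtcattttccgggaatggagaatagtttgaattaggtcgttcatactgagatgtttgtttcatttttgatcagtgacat
Cct2: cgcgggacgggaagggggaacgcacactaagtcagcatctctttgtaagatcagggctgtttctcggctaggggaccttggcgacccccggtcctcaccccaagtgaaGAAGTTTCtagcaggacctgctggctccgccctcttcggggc

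The heat shock pair was in 8 of the 21 genes with a window and in 7.86% of all 32851 windows, and the run of at least 3 alternating units was in *Hspe1* and *Sec62* and in 0.603% of all windows. *Kdelr3* was the only one of the 21 with TGACGTGG, which 0.676% of all windows hold. None of the 21 held the ER stress element, found in 0.119% of all windows. The ACGTG core, which is part of TGACGTGG, was in 8 of the 21 and in 19.6% of all windows. Some genes have more than 1 window, so the share per gene and the share per window are not the same quantity. Carrying the heat shock letters did not go with a rise in every case: *Copz1* and *Sec62* hold the pair and neither was called higher in graft P-SSCs, and 4 of the 8 genes called higher that have a window lack it. The ACGTG core was in *Kdelr3*, *Pdia5* and *P4ha1* among the genes called higher, and also in *Copz1*, *Sec22a*, *Sec22c* and *Sec62*, which were not.

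The first comparison asked how these genes differ between graft P-SSCs and P-SSCs of the undisturbed periosteum. Graft P-SSCs had higher levels of 9 of the 20 genes and lower levels of 0, at an adjusted p under 0.05 in limma (Benjamini-Hochberg, over the 1948 genes tested). Of all 1948 genes 34.1% were called, 22.6% higher and 11.5% lower. For 0 genes lower, the count at an unadjusted p under 0.05 was also 0. The 9 genes were a disulfide isomerase (*Pdia5*), a KDEL receptor (*Kdelr3*), a channel subunit (*Sec61g*), a collagen hydroxylase (*P4ha1*), a CCT subunit (*Cct2*), J proteins (*Dnaja1*, *Dnajc2*) and the mitochondrial chaperones tested (*Hspe1*, *Ppif*). *Ppif* passed the filter only with its graft libraries counted, and the count of 9 includes it. The median log2 fold change of the 20 genes was 0.60, against 0.26 for all genes tested, and 16 of the 20 were positive against 61.4% of all genes. For 12 of the 20 the libraries of one group all lay on one side of the other, of which 11 were higher in graft P-SSCs, against 50.6% of all genes, 31.5% higher. After median-of-ratios scaling, which brought the median of all genes to 0.02, 8 of the 20 were called higher and 1 lower, beside 16.0% and 15.5% of all genes under that scaling. With quantile normalization the counts were the same, beside 16.0% and 18.2% of all genes. Fold changes below are on the log2(FPKM + 1) scale and include the shift of 0.26 of all genes, and SE is the standard error.

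The summed level of the 20 genes was 1026, 1144 and 955 FPKM in the P-SSC libraries and 2137, 2159 and 2213 FPKM in the graft P-SSC libraries. All graft libraries were therefore well above all P-SSC libraries, and also above the BM-MSC libraries at 1253, 1304 and 1370 FPKM. In graft P-SSCs *Kdelr3* contributed most to the sum, with a mean of 494 FPKM, while in P-SSCs and BM-MSCs it was *Copz1*, with means of 158 and 204 FPKM.

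**Figure D1:**
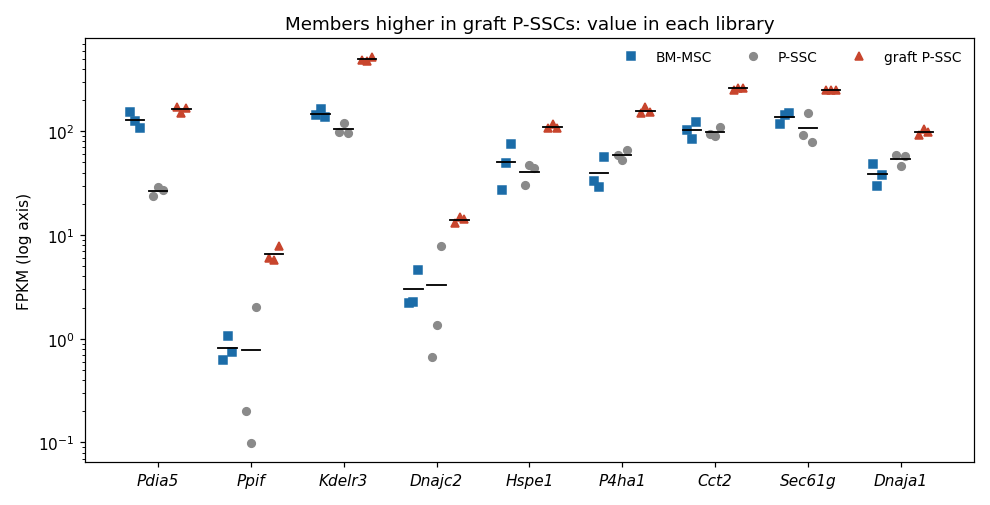
FPKM (log axis) of the 9 genes called higher in graft P-SSCs, with 1 point per library, squares for BM-MSCs, circles for P-SSCs, triangles for graft P-SSCs and a bar at each group mean (n = 3). All graft points lie above all P-SSC points, and for *Pdia5* alone the graft points overlap the BM-MSC points.

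*Pdia5* (ENSMUSG00000022844, chromosome 16 from 35397312 to 35490873, minus strand, GRCm38) encodes a protein disulfide isomerase of the ER lumen, an enzyme that makes and rearranges disulfide bonds. It had 23.6, 29.2 and 27.0 FPKM in the P-SSC libraries, 173, 151 and 166 FPKM in the graft P-SSC libraries, and 154, 126 and 108 FPKM in the BM-MSC libraries. P-SSCs were low and tightly grouped, while the graft libraries were high and reached the range of the BM-MSC libraries. The difference on the log2 scale was 2.58 (SE 0.17, limma adjusted p = 7.41e-06), and it was called under all 19 alternatives, between 2.19 and 2.64. This was the largest difference of the 20 genes at a pseudocount of 1, but *Ppif* and *Dnajc2* exceeded it at a pseudocount of 0.1 (3.71 and 2.78) and without P-SSC replicate 3 (2.70 and 2.93), there also after median-of-ratios scaling (2.49 and 2.63).

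*Kdelr3* (ENSMUSG00000010830, chromosome 15 from 79516411 to 79527739, plus strand) encodes a KDEL receptor, which binds ER chaperones that have reached the Golgi and returns them. It had 98.6, 119 and 96.6 FPKM in the P-SSC libraries and 489, 475 and 518 FPKM in the graft P-SSC libraries. The BM-MSC libraries, at 143, 164 and 136 FPKM, lay between and overlapped neither group. Per length it was, in the grafts, the most abundant of the 25 genes. The gene has a single annotated transcript, so its fragments could be counted: 2749, 2983 and 2591 in P-SSCs and 12202, 14290 and 13125 in the grafts. Counting error is small at such numbers. The difference was 2.23 on the log2 scale (SE 0.14, limma adjusted p = 5.98e-06), called under all 19 alternatives. It is also the gene whose promoter, printed above, holds the unfolded protein response element.

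The other genes of Golgi-to-ER retrieval did not pass the test. *Copz1* encodes the zeta subunit of the COPI coat and had 172, 178 and 125 FPKM in P-SSCs and 206, 202 and 208 FPKM in graft P-SSCs. The graft libraries lay above the P-SSC libraries, by a log2 fold change of 0.39 (limma adjusted p = 0.0865). With median-of-ratios scaling and without P-SSC replicate 3 it was -0.17. The p24 cargo receptor gene *Tmed1* had 130, 169 and 87.3 FPKM in P-SSCs and 145, 149 and 168 FPKM in graft P-SSCs, and these ranges overlapped. Its log2 fold change was 0.31 (95% interval -0.19 to 0.81, limma adjusted p = 0.327), and -0.02 with median-of-ratios scaling. Another p24 gene, *Tmed7*, had 1.54, 0.33 and 10.7 FPKM in P-SSCs and 9.17, 5.19 and 2.13 FPKM in graft P-SSCs. P-SSC replicate 3 alone was above all graft libraries. Without it the log2 fold change of *Tmed7* rose from 0.77 (limma adjusted p = 0.457) to 1.66 (limma adjusted p = 0.0215).

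At the entry into the ER, 1 of the 2 genes tested rose. *Sec61g* (ENSMUSG00000078974, chromosome 11 from 16500530 to 16508484, minus strand) encodes the gamma subunit of the Sec61 channel. It had 92.3, 151 and 78.2 FPKM in P-SSCs and 250, 253 and 248 FPKM in graft P-SSCs. The graft libraries were nearly equal and all above the scattered P-SSC libraries. *Sec61g* rose by 1.27 on the log2 scale (SE 0.23, limma adjusted p = 0.00223), and the call was lost in 1 alternative, median-of-ratios scaling without P-SSC replicate 3, with 0.67 and an adjusted p of 0.0512 from limma. *Sec62* encodes a membrane protein that helps short and weakly targeted proteins through the channel. It had 41.4, 48.3 and 39.4 FPKM in P-SSCs and 32.4, 33.6 and 34.1 FPKM in graft P-SSCs. It was the one gene of the 20 whose graft libraries all lay below all P-SSC libraries. Its log2 fold change of -0.35 had an adjusted p of 0.117 in limma. It was called lower with median-of-ratios scaling (-0.67, limma adjusted p = 0.0338), quantile normalization (-0.78, limma adjusted p = 0.00999) and median-of-ratios scaling without P-SSC replicate 3 (-0.81, limma adjusted p = 0.00597). Over all 19 alternatives its adjusted p reached 0.268 in limma.

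*P4ha1* (ENSMUSG00000019916, chromosome 10 from 59323296 to 59373304, plus strand) encodes the catalytic alpha subunit of collagen prolyl 4-hydroxylase. It had 58.5, 52.4 and 66.2 FPKM in P-SSCs and 150, 170 and 154 FPKM in graft P-SSCs. BM-MSCs, at 33.3, 29.2 and 57.0 FPKM, overlapped P-SSCs, and graft P-SSCs stood above both groups. Graft P-SSCs exceeded P-SSCs by 1.41 on the log2 scale (SE 0.24, limma adjusted p = 0.00166), called under all 19 alternatives. No other collagen hydroxylase was analysed here, and the 28 genes listed for collagen processing were not analysed here either.

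Among the cytosolic chaperones, *Cct2* (ENSMUSG00000034024, chromosome 10 from 117051001 to 117063814, minus strand) encodes the beta subunit of the chaperonin CCT. It had 94.2, 90.5 and 110 FPKM in P-SSCs, 252, 264 and 262 FPKM in graft P-SSCs, and 102, 85.2 and 122 FPKM in BM-MSCs. The steady-state groups overlapped and the graft libraries stood apart from both. On the log2 scale the difference was 1.40 (SE 0.16, limma adjusted p = 0.000213), called under all 19 alternatives. *Cct6b*, a subunit gene best known from testis, was too low to test, at 0.426 FPKM or less in each library.

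*Dnaja1* (ENSMUSG00000028410, chromosome 4 from 40722150 to 40737149, plus strand) encodes a J protein that delivers clients to Hsp70. It had 58.8, 46.4 and 58.2 FPKM in P-SSCs and 91.6, 105 and 97.7 FPKM in graft P-SSCs. The groups did not overlap, and the log2 fold change of 0.84 (SE 0.20, limma adjusted p = 0.0105) was the smallest among the genes called. The call depended on the scaling: it was lost with median-of-ratios scaling (0.52, limma adjusted p = 0.0563), with quantile normalization (0.53, limma adjusted p = 0.0532) and with median-of-ratios scaling without P-SSC replicate 3 (0.49, limma adjusted p = 0.0552). *Dnajc2* (ENSMUSG00000029014, chromosome 5 from 21757267 to 21785251, minus strand) encodes a J protein that binds the ribosome and assists chains as they emerge. It had 0.661, 1.35 and 7.90 FPKM in P-SSCs and 13.1, 14.8 and 14.4 FPKM in graft P-SSCs. P-SSC replicate 3 was far above the other P-SSC libraries, yet below the graft. *Dnajc2* rose by 2.21 on the log2 scale (SE 0.57, limma adjusted p = 0.0141). It was 2.93 without P-SSC replicate 3 (limma adjusted p = 9.76e-05), and 1.72 without P-SSC replicate 1, where the call was lost at an adjusted p of 0.0507 in limma.

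The other cytosolic genes tested were not called. *Dnajc7* encodes a J protein that binds both Hsp70 and Hsp90 and had 43.9, 49.2 and 38.3 FPKM in P-SSCs and 48.4, 48.1 and 52.0 FPKM in graft P-SSCs. The log2 fold change was 0.18 (95% interval -0.27 to 0.63), and it was -0.14 with median-of-ratios scaling. *Hspbp1*, which encodes a cofactor that releases nucleotide from Hsp70, had 122, 107 and 110 FPKM in P-SSCs and 106, 102 and 110 FPKM in graft P-SSCs. Both groups were almost level, with a log2 fold change of -0.09 (95% interval -0.93 to 0.75). The fit takes its spread from all groups, and the BM-MSC libraries ran from 49.0 to 174 FPKM. *Fkbpl*, a relative of the FK506-binding prolyl isomerases, had 2.72, 3.69 and 5.10 FPKM in P-SSCs and 3.63, 3.69 and 4.96 FPKM in graft P-SSCs.

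The mitochondrial chaperones tested, *Hspe1* and *Ppif*, were called higher, *Ppif* after a filter that it passed through its graft libraries. *Hspe1* (ENSMUSG00000073676, chromosome 1 from 55088132 to 55091307, plus strand) encodes Hsp10, the lid of the Hsp60 chamber in the mitochondrial matrix. It had 30.2, 47.4 and 43.8 FPKM in P-SSCs and 107, 119 and 108 FPKM in graft P-SSCs, with BM-MSCs spread from 27.3 to 75.8 FPKM. The graft libraries were above every steady-state library, by 1.46 over P-SSCs on the log2 scale (SE 0.33, limma adjusted p = 0.0079), called under all 19 alternatives. *Hspe1* has near-identical processed copies in the mouse genome that could share its reads, and the one in the table was at 0. *Ppif* (ENSMUSG00000021868, chromosome 14 from 25694154 to 25700468, plus strand) encodes cyclophilin D, a prolyl isomerase of the mitochondrial matrix known for its role at the permeability transition pore. It had 0.200, 0.0987 and 2.03 FPKM in P-SSCs and 5.99, 5.75 and 7.88 FPKM in graft P-SSCs. The level was low throughout, with P-SSC replicate 3 again the highest of its group. Outside the grafts only that library and BM-MSC replicate 2, at 1.07 FPKM, reached 1 FPKM, so *Ppif* was tested only because it was high in the grafts, and its call among the 9 has to be read with that. Its difference on the log2 scale was 2.24 (SE 0.39, limma adjusted p = 0.00202), and because of the pseudocount it ran from 1.01 to 3.71 over the alternatives, all of them called.

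None of the calls fell on the tested ER genes of the Hsp70 and J families, *Hspa13* and *Dnajc18*. Nor did any fall on the vesicle fusion genes tested, *Sec22a* and *Sec22c*. Other ER chaperones of these families were not analysed here. *Hspa13* encodes an Hsp70-like ATPase of the microsomes and had 13.4, 9.62 and 10.1 FPKM in P-SSCs and 14.1, 15.5 and 15.4 FPKM in graft P-SSCs. The graft libraries lay just above, with a log2 fold change of 0.42 (95% interval -0.33 to 1.17, limma adjusted p = 0.372), and -0.04 after quantile normalization. *Dnajc18*, a membrane-anchored J protein, had 8.34, 4.58 and 7.60 FPKM in P-SSCs and 4.26, 5.24 and 4.45 FPKM in graft P-SSCs. These ranges overlapped, and the log2 fold change of -0.44 had an adjusted p of 0.272 in limma. *Sec22a* and *Sec22c* encode relatives of the SNARE protein of ER-to-Golgi vesicles. *Sec22a* had 29.9, 35.7 and 22.9 FPKM in P-SSCs and 32.7, 34.4 and 33.5 FPKM in graft P-SSCs. *Sec22c* had 3.80, 1.87 and 9.19 FPKM in P-SSCs and 4.32, 3.79 and 4.01 FPKM in graft P-SSCs. For both the ranges overlapped, and for *Sec22c* the log2 fold change of -0.05 became 0.44 without P-SSC replicate 3, with neither called.

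**Figure D2:**
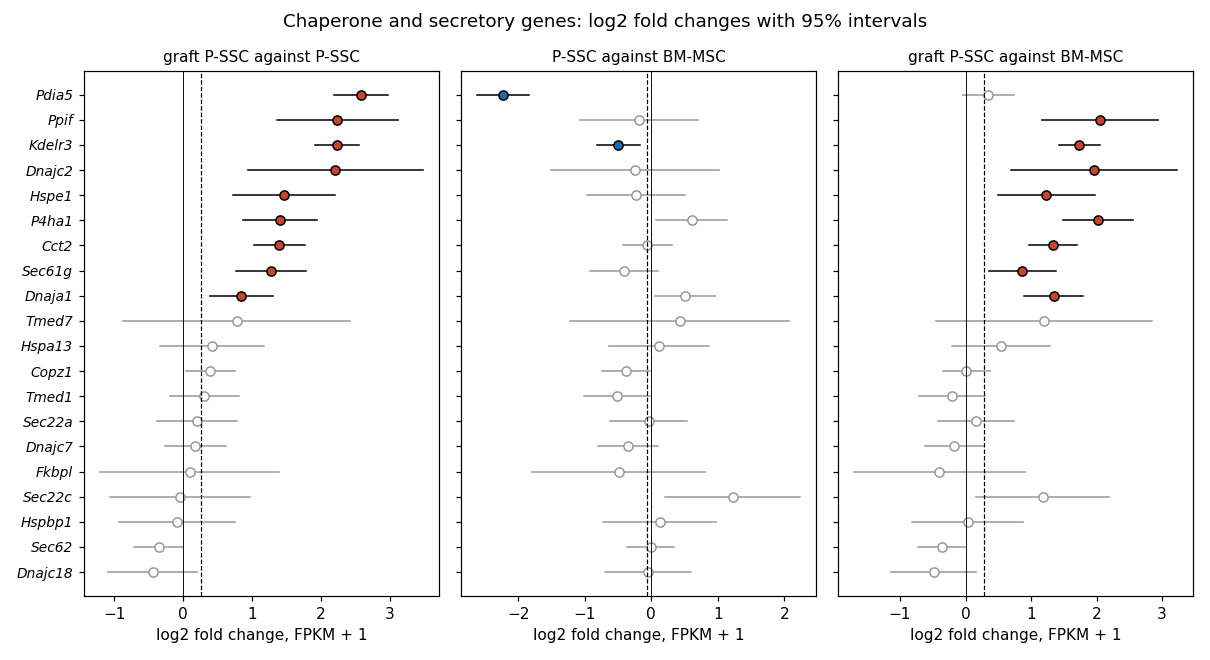
Log2 fold changes on the log2(FPKM + 1) scale with 95% intervals for the 20 genes tested in 3 comparisons, filled circles for genes called in limma (red higher, blue lower), the dashed line at the median of all genes tested. In graft P-SSCs against P-SSCs the 9 filled circles all lie to the right of that median of 0.26, while P-SSCs against BM-MSCs has 2 filled circles, both to the left of 0.

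The second comparison asked how P-SSCs and BM-MSCs differ before any injury. Of the 20 genes, 0 were higher and 2 were lower in P-SSCs by limma, against 24.2% called among all 1948 genes, 9.8% higher and 14.4% lower. The count of genes higher at an unadjusted p under 0.05 was 3, *Sec22c*, *P4ha1* and *Dnaja1*. The median log2 fold change of the 20 genes was -0.12, and that of all genes -0.06. *Pdia5*, whose library values are given above, had a log2 fold change of -2.23 (SE 0.17, limma adjusted p = 1.53e-05), and its highest P-SSC library at 29.2 FPKM was far below its lowest BM-MSC library at 108 FPKM. For *Kdelr3* the log2 fold change was -0.49 (limma adjusted p = 0.0302). The groups did not overlap, but the call was lost in 11 of 19 alternatives, among them median-of-ratios scaling and leaving out BM-MSC replicate 1, BM-MSC replicate 2, P-SSC replicate 1 or any graft library, with an adjusted p of up to 0.330 in limma. *Copz1* also had all P-SSC libraries below all BM-MSC libraries, at 215, 205 and 191 FPKM in BM-MSCs, with a log2 fold change of -0.38 (limma adjusted p = 0.126). Libraries did not overlap for these 3 genes, against 32.1% of all genes. Under either rescaling, median of ratios or quantile, 2 genes were called higher and 1 lower, while of all genes 10.5% and 11.6% were called higher and 12.8% and 12.7% lower, so the share called higher was close to that of all genes.

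P-SSCs and BM-MSCs also differ in how they were released from tissue, 45 min of digestion for periosteum and 30 min for marrow. The 5 immediate early genes in the table, which respond to handling within minutes, summed to 1142 to 1266 FPKM in P-SSCs, 1038 to 1118 FPKM in graft P-SSCs and 486 to 638 FPKM in BM-MSCs. Against BM-MSCs, 3 of the 5 were called higher in P-SSCs, *Atf3* (4.61 on the log2 scale), *Egr1* (2.67) and *Fosl2* (1.58), and 4 of the 5 in graft P-SSCs, those and *Nr4a2*. Of all genes tested, 9.8% were called higher in P-SSCs and 25.7% in graft P-SSCs. Between graft P-SSCs and P-SSCs, 0 of the 5 were called higher and 1 lower, and 4 had a positive log2 fold change, beside 22.6%, 11.5% and 61.4% of all genes. The gene called was *Atf3*, which encodes a stress-induced transcription factor and had 577, 611 and 271 FPKM in P-SSCs and 90.1, 90.8 and 88.8 FPKM in graft P-SSCs (-2.33, limma adjusted p = 0.0012). The others were *Egr1* at 1.59, *Nr4a2* at 1.41, *Fosl2* at 0.39 and *Cyr61* at 0.35, with the graft libraries all above the P-SSC libraries for *Nr4a2* and *Cyr61*. For *Egr1*, with 54.0, 37.3 and 514 FPKM in P-SSCs and 315, 340 and 276 FPKM in graft P-SSCs, P-SSC replicate 3 alone was above every graft library. No gene of the 5 other than *Nr4a2* was higher at an unadjusted p under 0.05. The part of handling in the differences of the chaperone genes was not tested.

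The third comparison set graft P-SSCs against BM-MSCs, and shares its libraries with the other comparisons. Of the 20 genes, 8 were higher and 0 lower by limma, against 41.9% called among all genes, 25.7% higher and 16.2% lower. At an unadjusted p under 0.05, 1 gene was lower, *Sec62*. For 11 of the 20 the groups did not overlap, 9 of them higher in the grafts, against 64.5% and 40.5% of all genes. The 8 genes are those called between graft P-SSCs and P-SSCs other than *Pdia5*. The log2 fold changes were 2.05 for *Ppif*, 2.02 for *P4ha1*, 1.96 for *Dnajc2*, 1.74 for *Kdelr3*, 1.35 for *Dnaja1*, 1.34 for *Cct2*, 1.23 for *Hspe1* and 0.86 for *Sec61g*, with adjusted p-values from 1.5e-05 to 0.0206 in limma. *Ppif* was tested only because it was high in the grafts, so its value and the count of 8 have to be read with that. The call of *Dnajc2* was lost without BM-MSC replicate 1, BM-MSC replicate 2 or any graft library, with adjusted p-values of up to 0.0665 in limma. Under median-of-ratios scaling 7 of the 20 were called higher and 1 lower, beside 19.9% and 18.7% of all genes. The call of *Sec61g* was lost with median-of-ratios scaling (0.62) and without BM-MSC replicate 1 (0.76), and that of *Hspe1* without graft P-SSC replicate 2 (1.18). *Pdia5* differed by a log2 fold change of 0.35 (95% interval -0.04 to 0.74, limma adjusted p = 0.134), and its libraries overlapped.

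Set in order of group means, 13 of the 20 genes were highest in graft P-SSCs, and for 9 of these the graft libraries did not overlap the group with the next lower mean. Over all 1948 genes tested the shares were 45.7% and 22.9%. The 13 and the 9 include *Ppif*, which passed the filter only with its graft libraries counted. One of the 9, *Hspa13*, overlapped BM-MSCs, whose mean was lowest. For 8 genes the order was P-SSCs, BM-MSCs, graft P-SSCs, and for 5 it was BM-MSCs, P-SSCs, graft P-SSCs. The first order held for *Pdia5*, *Kdelr3*, *Hspe1*, *Cct2*, *Sec61g* and *Ppif*, the second for *P4ha1*, *Dnaja1* and *Dnajc2*. Of these genes, *Pdia5* and *Kdelr3* were called between P-SSCs and BM-MSCs. *P4ha1* and *Dnaja1* were higher in P-SSCs at an unadjusted p under 0.05 and not after adjustment. Graft P-SSCs were lowest for 3 genes, *Sec62*, *Hspbp1* and *Dnajc18*. The spread within groups was smallest in the grafts: the median coefficient of variation of the 20 genes was 6.10% in graft P-SSCs, 20.1% in P-SSCs and 26.4% in BM-MSCs.

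**Figure D3:**
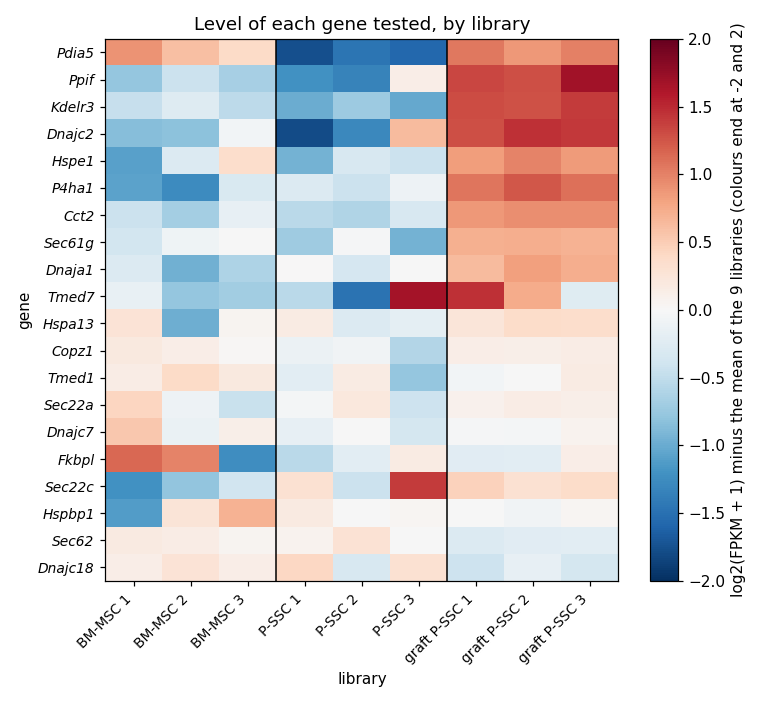
Level of each of the 20 genes tested in each of the 9 libraries, as log2(FPKM + 1) minus its mean over the libraries, with rows ordered by the fold change between graft P-SSCs and P-SSCs and lines between the groups. The upper 9 rows are red in all graft columns, and the P-SSC 3 column is redder than P-SSC 1 and P-SSC 2 for *Ppif*, *Dnajc2*, *Tmed7* and *Sec22c*.

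Genes of the same pathway outside the name rule were followed with 6 lists of 215 symbols, of which 29 were in the table and all 29 were tested. Between graft P-SSCs and P-SSCs, 12 of the 29 were higher and 3 lower by limma, beside the 22.6% and 11.5% of all genes. The median log2 fold change of the 29 was 0.52. With median-of-ratios scaling 7 were higher and 3 lower, and with quantile normalization 6 and 3. Of all genes 16.0% were called higher under each of these scalings, and 15.5% and 18.2% lower. The other genes of the lists were not analysed here.

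Of 6 genes for ER folding and quality control, 4 rose and 1 fell, beside 22.6% and 11.5% of all genes. *Ganab* encodes the alpha subunit of glucosidase II, which trims the sugar of new glycoproteins for the calnexin cycle. It had 48.8, 33.7 and 43.9 FPKM in P-SSCs and 90.4, 94.1 and 96.6 FPKM in graft P-SSCs. The groups were well separated, with a log2 fold change of 1.15 (SE 0.19, limma adjusted p = 0.0014). *Derl1*, a component of the channel that returns misfolded proteins to the cytosol, had 57.6, 57.3 and 107 FPKM in P-SSCs and 135, 138 and 132 FPKM in the grafts. Its log2 fold change was 0.92 (limma adjusted p = 0.0168), and the call was lost in 6 of 19 alternatives, with either rescaling and without P-SSC replicate 1, P-SSC replicate 2, graft P-SSC replicate 1 or graft P-SSC replicate 2 (adjusted p of up to 0.0668). *Edem2*, which encodes a lectin that starts mannose trimming of misfolded glycoproteins, went the other way. It had 199, 211 and 162 FPKM in P-SSCs and 102, 99.7 and 99.1 FPKM in graft P-SSCs, and the log2 fold change was -0.91 (limma adjusted p = 0.00329). The other genes that rose, named after their values were seen, were the membrane disulfide isomerase *Tmx1* (log2 fold change 1.05, limma adjusted p = 0.00914) and *Erp29* (0.85, limma adjusted p = 0.0194), whose call was lost in 7 of 19 alternatives, both scalings and 4 single libraries among them, with an adjusted p of up to 0.359.

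All 3 genes of translocation rose, beside 22.6% of all genes. *Tram1*, a membrane protein beside the Sec61 channel, had 21.3, 13.4 and 135 FPKM in P-SSCs and 241, 244 and 228 FPKM in graft P-SSCs. P-SSC replicate 3 was again far above the other P-SSC libraries and below the graft. *Tram1* rose by 2.76 on the log2 scale (SE 0.67, limma adjusted p = 0.011), with 3.73 when P-SSC replicate 3 was left out and 2.12 when P-SSC replicate 2 was. *Srprb*, the membrane subunit of the receptor for the signal recognition particle, had 33.2, 38.3 and 28.5 FPKM in P-SSCs and 75.6, 69.3 and 81.6 FPKM in graft P-SSCs. Its libraries did not overlap and its log2 fold change was 1.16 (limma adjusted p = 0.00202). *Tram2*, a relative of *Tram1* named after its values were seen, had a log2 fold change of 1.21 (limma adjusted p = 0.00619), and its call was lost with quantile normalization (0.74, adjusted p = 0.0718).

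Of 3 genes of the unfolded protein response, the signalling that raises ER chaperones under load, 2 fell and 0 were called higher, with none higher at an unadjusted p under 0.05. Of all genes 11.5% were called lower and 22.6% higher. *Mbtps1* encodes the Golgi protease that releases ATF6 and had 140, 113 and 122 FPKM in P-SSCs and 81.2, 78.0 and 76.6 FPKM in graft P-SSCs. *Ddit3*, which encodes the transcription factor CHOP of prolonged ER stress, had 38.3, 28.9 and 39.1 FPKM in P-SSCs and 13.0, 20.7 and 20.9 FPKM in graft P-SSCs. Both were lower in all graft libraries, with log2 fold changes of -0.66 (limma adjusted p = 0.00825) and -0.94 (limma adjusted p = 0.0126). The call of *Ddit3* was lost without graft P-SSC replicate 1 (-0.73, adjusted p = 0.054). *Wfs1*, named after its values were seen, had all graft libraries above all P-SSC libraries, with a log2 fold change of 0.62 (limma adjusted p = 0.119).

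Of 9 genes for vesicle coats and the Golgi, 3 rose and 0 fell, beside 22.6% and 11.5% of all genes, and none of the 9 was lower at an unadjusted p under 0.05. *Rab1b*, a GTPase of ER-to-Golgi transport and the most abundant of them, had 169, 194 and 124 FPKM in P-SSCs and 148, 151 and 146 FPKM in graft P-SSCs. These ranges overlapped. *Arfgap1*, which switches off the GTPase that recruits COPI, had 52.3, 48.7 and 34.5 FPKM in P-SSCs and 85.8, 85.6 and 89.4 FPKM in the grafts, which lay above. Its log2 fold change of 0.95 (limma adjusted p = 0.0104) was not called under quantile normalization (0.66) or under median-of-ratios scaling with P-SSC replicate 3 (0.63) or without it (0.37, adjusted p = 0.265). *Cog1*, part of the complex that tethers vesicles within the Golgi, had 3.64, 3.91 and 50.7 FPKM in P-SSCs and 52.3, 53.3 and 55.0 FPKM in graft P-SSCs. P-SSC replicate 3 was close to the graft level. The log2 fold change of 2.37 (limma adjusted p = 0.041) rose to 3.51 without that library and lost its call in 13 of 19 alternatives, among them the removal of any other library (adjusted p of up to 0.145). *Yipf5*, a Golgi membrane protein named after its values were seen, rose by a log2 fold change of 1.16 (limma adjusted p = 0.000857).

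Of 8 regulators of cytosolic chaperones 2 rose and 0 fell, a share close to the 22.6% of all genes called higher, with none lower at an unadjusted p under 0.05. *Bag2*, an exchange factor that works on Hsp70, had 3.36, 10.4 and 12.7 FPKM in P-SSCs and 47.3, 47.0 and 46.3 FPKM in graft P-SSCs. Its groups were far apart, with a log2 fold change of 2.44 (SE 0.41, limma adjusted p = 0.00156). *Ahsa1*, which activates the ATPase of Hsp90, had 71.5, 71.2 and 67.6 FPKM in P-SSCs and 96.3, 101 and 105 FPKM in graft P-SSCs. The log2 fold change was 0.52 (limma adjusted p = 0.0224), but 0.20 and not called with median-of-ratios scaling, and the call was lost in 8 of 19 alternatives, including without P-SSC replicate 1 or any graft library. *St13*, an Hsp70-interacting protein, had 55.2, 48.3 and 67.9 FPKM in P-SSCs and 61.6, 78.0 and 67.8 FPKM in graft P-SSCs, and these ranges overlapped.

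**Figure D4:**
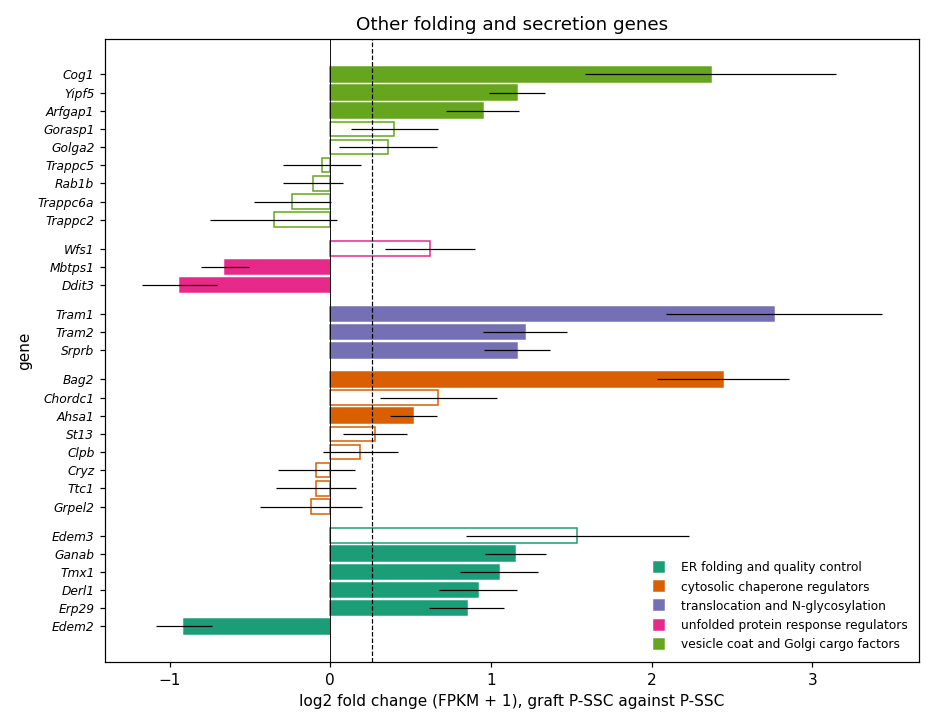
Log2 fold change on the log2(FPKM + 1) scale between graft P-SSCs and P-SSCs for the 29 other genes of folding and secretion, coloured by list, with standard errors, filled bars for genes called in limma and the dashed line at the median of all genes tested. The filled bars point right for 12 genes and left for *Mbtps1*, *Ddit3* and *Edem2*.

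The remaining 5 genes of the name rule did not pass the filter. *Dnajc5g*, a J protein gene related to that of the cysteine string protein, was listed at 0 in all libraries. *Dnajb13* was at 0 in all steady-state libraries and had 0.0411, 0.512 and 0.243 FPKM in graft P-SSCs. *Hspb3*, a small heat shock protein of muscle, was above 0 in 1 graft library, and *Sec14l5* was above 0 in 1 BM-MSC library. *Cct6b* was above 0 in all 3 graft libraries and in 1 BM-MSC library. At these levels no difference was detectable.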

How the data were processed

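RNA of sorted cells was sequenced in 9 libraries, 3 per group. Per the labels and methods, the authors purified poly-A RNA, mapped reads to GRCm38 with STAR 2.6.1d and counted them with featureCounts 1.5.0-p3 (the submitters' processing notes also name CASAVA and fastp). The deposited values are FPKM, which the authors scaled by gene length and by the library total without further normalization. For genes with a single transcript 99.77% to 99.85% of values were whole fragments (tolerance 0.01), which gave the totals. For genes with several transcripts the length the authors used could not be recovered, so no count test was run. Intervals and tests cover the spread between libraries, with distinct mice in each replicate per the methods.

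Values were analysed as log2(FPKM + 1), keeping genes of at least 1 FPKM in at least 3 of 9 libraries (1948 genes). One limma 3.58.1 fit (R 4.3.3, eBayes with a trend) covered all 9 libraries, and a gene was called when its Benjamini-Hochberg adjusted p was under 0.05. The procedure was tested on simulated data, where it missed part of the true changes, so a gene not called is not shown to be unchanged. Positions are those of the files and were the same in GENCODE vM21 for 24 of the 25 genes. The alternatives were 18 planned settings and 1 added after the data were seen. The genes and lists were chosen with earlier results of these data known. Values in every library are given for the genes called between graft P-SSCs and P-SSCs (at least 10 FPKM in the higher group), the 2 most abundant per role, those called between P-SSCs and BM-MSCs, and, per other list, the 2 most abundant and the largest called change. *Tmed1*, *Tmed7* and the low genes were given in full after their values were seen.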

Additional observations from a re-analysis of the deposited data

How the results depend on the processing

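Of the 9 genes called higher in graft P-SSCs, *Pdia5*, *Kdelr3*, *P4ha1*, *Cct2*, *Hspe1* and *Ppif* were called under all 19 alternatives. Wherever a filter was used, *Ppif* was tested only because it was high in the grafts. Where a call or direction changed, the cause was not tested. The count of genes called lower in graft P-SSCs went from 0 to 1 with median-of-ratios scaling, quantile normalization and median-of-ratios scaling without P-SSC replicate 3, each time *Sec62*, beside 15.5%, 18.2% and 21.7% of all genes. The median log2 fold change went from 0.60 to 0.35 with a pseudocount of 5, 0.39 without a filter, 0.77 with FPKM of at least 5, 0.32 with median-of-ratios scaling, 0.28 with quantile normalization and 0.31 with median-of-ratios scaling without P-SSC replicate 3. Leaving out 1 library gave 0.43 to 0.67, the lowest without graft P-SSC replicate 1. Among all genes 441 were higher and 224 lower, and 312 and 302 with median-of-ratios scaling.

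Directions of genes that were not called reversed as follows. With median-of-ratios scaling the log2 fold change was -0.017 for *Tmed1*, -0.14 for *Dnajc7*, -0.16 for *Fkbpl* and -0.11 for *Sec22a*. With quantile normalization it was -0.040 for *Hspa13*, -0.20 for *Dnajc7*, -0.24 for *Fkbpl* and -0.19 for *Sec22a*. With median-of-ratios scaling without P-SSC replicate 3 it was 0.13 for *Sec22c*, -0.0056 for *Hspa13*, -0.35 for *Tmed1*, -0.17 for *Copz1*, -0.31 for *Dnajc7*, -0.044 for *Fkbpl* and -0.36 for *Sec22a*. Leaving out 1 library gave -0.47 to 0.44 for *Sec22c*, the highest without P-SSC replicate 3, and -0.081 to 0.28 for *Fkbpl*, negative without P-SSC replicate 1 and without graft P-SSC replicate 3.

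Between P-SSCs and BM-MSCs, 2 genes were called higher with median-of-ratios scaling and with quantile normalization, 1 with median-of-ratios scaling without P-SSC replicate 3, and 0 to 1 when 1 library was left out. Of all genes 10.5%, 11.6% and 13.1% were called higher under these settings in turn, and 8.42% to 11% when 1 library was left out. The genes called lower went from 2 to 1 with both scalings, with only the 2 groups compared, without the trend and with median-of-ratios scaling without P-SSC replicate 3, and ranged from 1 to 4 when 1 library was left out, the highest without P-SSC replicate 2. Of all genes 9.75% to 17.2% were called lower under these settings, 11.9% to 19.7% when 1 library was left out, and 13.2% without P-SSC replicate 2. Between graft P-SSCs and BM-MSCs, 1 gene was called lower with median-of-ratios scaling, quantile normalization and only the 2 groups compared, 2 with median-of-ratios scaling without P-SSC replicate 3, and 0 to 1 when 1 library was left out. Of all genes 18.7%, 20.8%, 19.8% and 24.1% were called lower under these settings in turn, and 12% to 19% when 1 library was left out. The median log2 fold change of the 20 genes went from 0.70 to 0.46 with a pseudocount of 5, 0.34 without a filter, and 0.47 with median-of-ratios scaling, with or without P-SSC replicate 3. Of the 29 other pathway genes, between graft P-SSCs and P-SSCs, 7 were called higher with median-of-ratios scaling and 6 with quantile normalization, beside 16% of all genes under each. With median-of-ratios scaling without P-SSC replicate 3, 5 of them were called lower, beside 21.7% of all genes.

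The replicate numbers showed no pairing of the libraries: deviations of same-numbered P-SSC and graft P-SSC libraries correlated at -0.43 to -0.09, and in 3 of 18 checks, each of the 9 libraries against each other group, a library correlated best with its own number. Replicate numbers need not be mouse numbers, so neither this check nor a block on them can test whether groups shared mice. With the replicate number as a block, 9 genes were called higher and 0 lower in graft P-SSCs, 0 and 2 between P-SSCs and BM-MSCs, and 8 and 0 between graft P-SSCs and BM-MSCs, and 621 of all genes were called between graft P-SSCs and P-SSCs in place of 665. Of all genes 21.4% and 10.5% were then called higher and lower in the first comparison. The shares were 9.34% and 13.3% in the second, and 23.5% and 15.2% in the third.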
